A study of Mus musculus with 27 samples.

Results

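The transcripts of 9 genes that move iron into, within and out of cells were followed in mouse splenic B cells. They were chosen by gene symbol: Tfrc, Slc11a2 and Hfe for uptake, Fth1 and Ftl1 for storage, Ncoa4 for release from storage, Slc40a1 for export, and Aco1 and Ireb2 for sensing. All 9 symbols had 1 row each among the 54532 genes of the count tables. The study cultured B cells from the spleens of C57BL6 wild-type mice, taken by negative magnetic selection, and asked what disulfiram (DSF), an anti-alcoholism drug, does to their activation. RNA was made after 3 h of culture, and poly(A) RNA was sequenced. Experiment 1 held 20 libraries in 5 groups of 4: unstimulated cells (NS), lipopolysaccharide (LPS, a T-independent stimulus), LPS with 1 µM DSF, IL-4+anti-CD40 (IL4CD40, a T-dependent stimulus) and IL4CD40 with 1 µM DSF. Experiment 2 held 7 single libraries: the same 5 conditions, and each stimulus with 1 µM ibrutinib, an inhibitor of Bruton's tyrosine kinase. Cultures without an inhibitor received the vehicle, DMSO.

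Iron reaches most cells bound to transferrin, which the transferrin receptor carries into endosomes, where iron is freed and pumped into the cytosol. Iron that is not used at once is locked inside ferritin, a shell of heavy and light chains, and surplus ferrous iron leaves through ferroportin, the product of Slc40a1. The iron regulatory proteins, encoded by Aco1 and Ireb2, bind a hairpin called the iron-responsive element (IRE) in target mRNAs when iron is scarce. In a 5′ UTR this hairpin holds back translation, and in a 3′ UTR it protects the mRNA from decay. Proliferating lymphocytes are known to raise the transferrin receptor, and macrophages of the splenic red pulp, which recycle the iron of red blood cells, are the classical site of ferroportin. Libraries of mRNA report transcript levels only, so control of translation through the IRE was not measured.

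The IRE letters are shown here because they divide these genes by the kind of control their mRNAs can receive. The letters searched were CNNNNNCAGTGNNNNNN on the transcript strand, with the 5 bases on both sides of the 6-base loop pairing, G-U pairs counted and at most 1 mismatch allowed, in the protein-coding transcripts of GENCODE vM21 (GRCm38). Capitals mark the unpaired C and the loop, and each run is 30 bases, 5′ to 3′. Fth1, Ftl1 and Slc40a1 each held 1 match in the 5′ UTR:
Fth1, chr19:9982732-9982761, plus strand: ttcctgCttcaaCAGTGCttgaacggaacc
Ftl1, chr7:45459778-45459807, minus strand: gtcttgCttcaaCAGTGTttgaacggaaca
Slc40a1, chr1:45925464-45925493, minus strand: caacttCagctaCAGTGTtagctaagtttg
Tfrc held 4 matches in the 3′ UTR, all on the plus strand:
Tfrc, chr16:32631219-32631248: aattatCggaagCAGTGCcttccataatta
Tfrc, chr16:32631598-32631627: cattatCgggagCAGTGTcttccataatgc
Tfrc, chr16:32631663-32631692: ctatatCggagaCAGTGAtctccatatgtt
Tfrc, chr16:32631710-32631739: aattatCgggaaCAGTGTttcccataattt
Slc11a2 held 1 match in the 3′ UTR of 1 transcript form, the match with a mismatch in the stem:
Slc11a2, chr15:100395152-100395181, minus strand: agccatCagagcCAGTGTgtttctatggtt

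The matches of Ftl1, Slc40a1 and Tfrc also lay in 1 transcript form each, and that of Fth1 in 4. Hfe, Ncoa4, Aco1 and Ireb2 held no such letters in a UTR. Over 21901 genes with protein-coding transcripts, 0.941% held the letters in a 5′ UTR and 3.98% in a 3′ UTR. A match is a description of the letters and not a measured site.

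The libraries held 17804851 to 23632992 counts in experiment 1 and 16049295 to 24619776 in experiment 2. Levels are given as CPM (counts scaled to a common library size, with TMM factors within each experiment) for comparison between libraries, and as the authors' FPKM, which divides by gene length, for comparison between genes. All 10 B cell markers were detected in every library of experiment 1, the lowest value being 85.3 CPM for Fcmr. Libraries of some groups stood apart by replicate number: in unstimulated cells, 1420 of 15575 genes lay at least 2-fold apart between replicates 1 and 2 and replicates 3 and 4, while 233 did in IL4CD40 cells and 81 in IL4CD40 cells with DSF, against 8 in LPS cells. Summed markers of other cell types in experiment 1 ran from 4.39 to 13.2 CPM for T cells, 2.25 to 15.5 for NK cells, 12.7 to 69.6 for neutrophils, 50.6 to 130.5 for dendritic cells, 335.7 to 1226 for monocytes and 1.90 to 30.2 for erythroid cells. Of these, the erythroid sum was 29.9 and 30.2 CPM in unstimulated replicates 3 and 4 but at most 4.69 in all other libraries, unstimulated replicates 1 and 2 included. The neutrophil sum was 69.2 and 69.6 in unstimulated replicates 1 and 2 but at most 26.2 in the others. The monocyte sum was higher in DSF libraries: 1127 to 1226 against 866.1 to 922.4 CPM under LPS, and 586.8 to 607.4 against 335.7 to 370.0 under IL4CD40. The monocyte list included Nr4a1, an immediate early gene, so its sum is not specific to monocytes. Gene by gene, 2 of 10 monocyte markers tested were higher and 4 lower with DSF under LPS (edgeR adjusted p under 0.05, median log2 -0.24). Under LPS the sum thus rose while the median marker did not. Under IL4CD40, 5 of 9 were higher and 1 lower (median 0.32). Over all genes tested, 35.1% were higher and 36.0% lower under LPS, and 30.1% and 31.6% under IL4CD40. The dendritic sum was higher with DSF under LPS, 109.6 to 118.8 against 69.7 to 75.0 CPM, and overlapped under IL4CD40, 121.8 to 130.5 against 110.6 to 124.1. The B cell sum was lower in DSF libraries, 4284 to 4573 against 5649 to 5801 CPM and 5307 to 5458 against 7132 to 8649. The part of these in the changes with DSF was not tested. In bulk RNA, fewer cells of a type and less RNA per cell cannot be told apart. The labels do not say that the 4 libraries of a group came from separate mice, so p-values measure the spread between these libraries.

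By FPKM, ferritin heavy chain led these genes in every group. In unstimulated cells the mean FPKM (n = 4) was 898.3 for Fth1, rank 32 among all genes, and 211.4 for Ftl1. Tfrc followed with 19.5, Ireb2 with 12.7, Aco1 with 7.08, Ncoa4 with 5.43, Slc11a2 with 3.32, Hfe with 1.90 and Slc40a1 with 0.761. With LPS and DSF, the mean FPKM of Fth1 was 7760 and ranked 1 among all genes. With IL4CD40 and DSF it was 5934 and ranked 3. Together, Fth1 and Ftl1 in experiment 1 took 0.0645 to 0.2% of all counts in libraries without DSF and 0.591 to 0.774% in the 8 libraries with it.

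**Figure D1:**
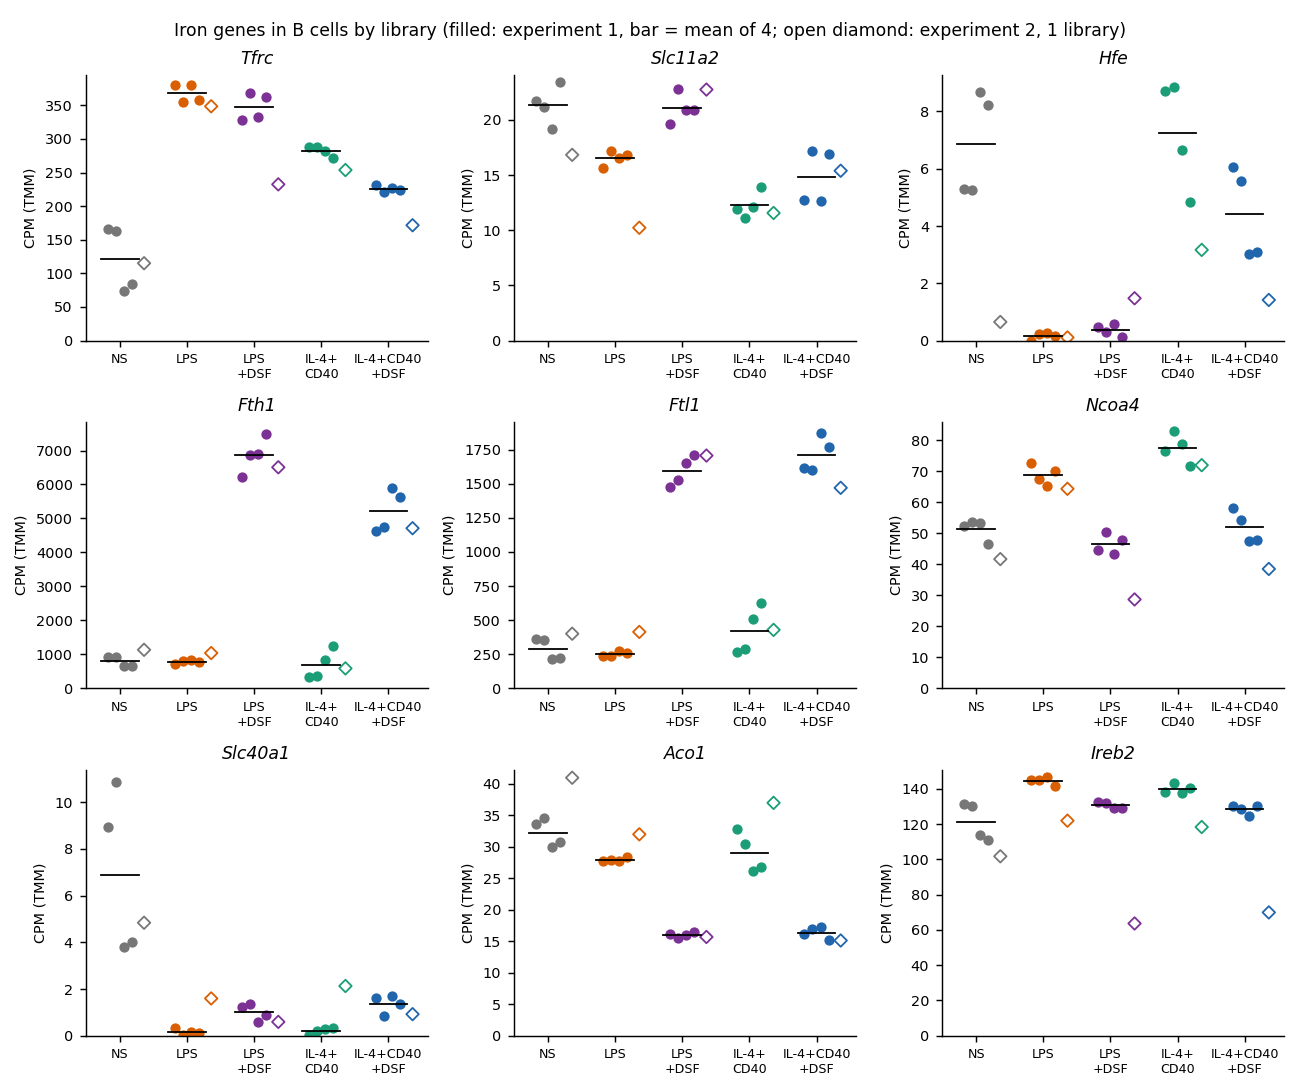
CPM of each gene (y axis, linear from 0, own scale per panel) by condition; filled points are the 4 libraries of experiment 1 in replicate order with a bar at their mean, and open diamonds are the single libraries of experiment 2. Fth1 and Ftl1 lay far higher in all DSF libraries of both experiments, Hfe was near 0 with LPS, and in experiment 1 Slc40a1 was highest in unstimulated cells.

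Both stimuli raised the transferrin receptor and lowered the exporter after 3 h, while the ferritin mRNAs did not pass the test. With LPS against unstimulated cells, 3 of the 9 genes were higher and 4 lower at an adjusted p under 0.05 (edgeR's quasi-likelihood test, Benjamini-Hochberg over all genes tested). Over all 14477 genes tested, 29.6% were higher and 33.3% lower. With IL4CD40, 3 of the 9 were higher and 2 lower, against 30.4% and 32.1% of all genes. The counts of these genes are thus near the background, and the sizes differ widely from gene to gene. Over the 9 genes the median change on the log2 scale was -0.18 (LPS) and 0.14 (IL4CD40), beside -0.05 and -0.04 over all genes tested. The comparisons with unstimulated cells share those 4 libraries. Scaled by total counts in place of TMM, the median gene moved by -0.23 with LPS and -0.15 with IL4CD40, and the share of higher genes among all calls went from 47.1 to 31.2% and from 48.6 to 38.3%.

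**Figure D2:**
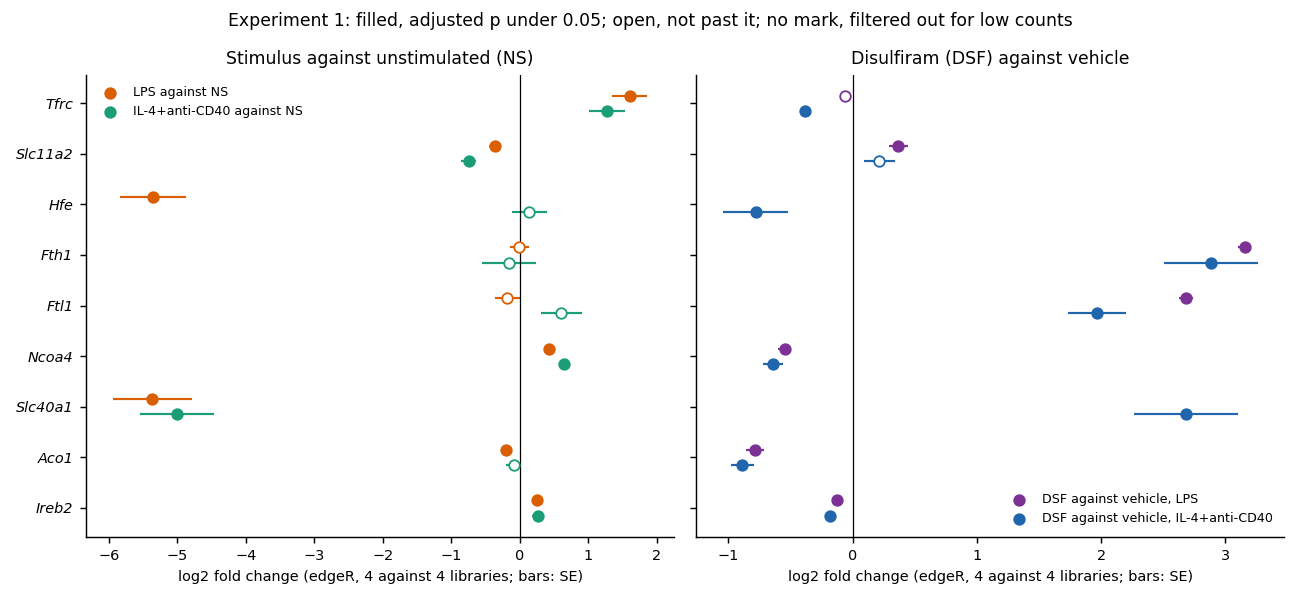
Log2 fold change of each gene with its SE in experiment 1 (4 against 4 libraries), stimulus against unstimulated cells at left and DSF against vehicle at right, with filled points past an adjusted p of 0.05. Slc40a1 fell by more than 5 log2 units under both stimuli, Hfe did so with LPS, and Fth1 and Ftl1 lay at 1.97 to 3.15 with DSF.

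Tfrc encodes transferrin receptor 1, the main entry for transferrin-bound iron (ENSMUSG00000022797, chr16:32608920-32632794, plus strand). Its counts were 4418, 4200, 1803 and 1868 in unstimulated replicates 1 to 4, which is 165.9, 162.4, 73.8 and 84.1 CPM. With LPS the 4 libraries held 380.4, 354.7, 379.6 and 357.4 CPM, and with IL4CD40 287.3, 287.4, 282.3 and 271.1 CPM. Every stimulated library lay above every unstimulated one, although unstimulated replicates 1 and 2 held 2.08 times the level of replicates 3 and 4. Tfrc rose 3.03-fold with LPS (log2 1.60, SE 0.26, edgeR adjusted p = 0.000705) and 2.41-fold with IL4CD40 (log2 1.27, SE 0.26, adjusted p = 0.00219). Against unstimulated replicates 1 and 2 only, the log2 change was 1.17 with LPS and 0.81 with IL4CD40, and against replicates 3 and 4 only it was 2.25 and 1.91. Tfrc was also higher with LPS than with IL4CD40, by 0.39 on the log2 scale (SE 0.046, edgeR adjusted p = 3.26e-05), though not with all 20 libraries in one fit (adjusted p = 0.109).

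In the main fits, DSF moved Tfrc little under LPS and lowered it under IL4CD40. With LPS and DSF the 4 libraries held 328.5, 368.3, 332.5 and 363.0 CPM, a range that overlapped that of LPS alone (log2 -0.06, SE 0.042, edgeR adjusted p = 0.185). Scaled by total counts, which moved the median gene of this comparison by -0.21, the value for Tfrc was -0.27 (adjusted p = 2.34e-06). With every gene that had a count in the fit, Tfrc was also called lower (log2 -0.12, SE 0.043, edgeR adjusted p = 0.0123). With IL4CD40 and DSF the libraries held 232.1, 220.8, 226.7 and 223.5 CPM, all below the 4 libraries without DSF (log2 -0.38, SE 0.046, edgeR adjusted p = 2.72e-05). Over all 20 libraries in one fit this fall was -0.32 with an adjusted p of 0.135. The difference between the DSF effects under the 2 stimuli was 0.31 (SE 0.067, edgeR adjusted p = 0.00325 for the interaction term), and 0.24 with an adjusted p of 0.641 over all 20 libraries. Tfrc was the only 1 of the 9 genes with a called interaction, while 7.92% of all 15130 genes tested had a higher and 6.96% a lower effect under LPS. Even with DSF, Tfrc remained above unstimulated cells, by 1.51 with LPS and 0.90 with IL4CD40 on the log2 scale (edgeR adjusted p = 0.000719 and 0.0125), although the second was lost when libraries were scaled by total counts (adjusted p = 0.0845).

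Slc11a2 encodes DMT1, which pumps ferrous iron out of the endosome (ENSMUSG00000023030, chr15:100387898-100425072, minus strand). It held 21.8, 21.2, 19.1 and 23.5 CPM in unstimulated cells, 15.6, 17.2, 16.6 and 16.8 with LPS, and 12, 11.1, 12.1 and 14 with IL4CD40. The stimulated libraries all lay below the unstimulated ones, a direction opposite to that of Tfrc. On the log2 scale Slc11a2 fell by 0.37 under LPS (SE 0.087, edgeR adjusted p = 0.00528) and by 0.75 under IL4CD40 (SE 0.11, adjusted p = 0.000281). With DSF under LPS it held 19.7, 22.8, 20.9 and 21.0 CPM, above all 4 LPS libraries (log2 0.37, SE 0.076, edgeR adjusted p = 0.000131). That call was lost with total counts (0.16, adjusted p = 0.0649). Under IL4CD40 with DSF the 4 libraries held 12.7, 17.2, 12.6 and 16.9 CPM and overlapped those without (log2 0.21, SE 0.13, edgeR adjusted p = 0.163).

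Hfe encodes the haemochromatosis protein, an MHC class I-like partner of the transferrin receptor that takes part in iron sensing (ENSMUSG00000006611, chr13:23702034-23710854, minus strand). It was the gene that set the 2 stimuli furthest apart. Unstimulated cells held 141, 136, 212 and 183 counts, IL4CD40 cells 190, 191, 147 and 92, and LPS cells 0, 5, 5 and 3. Every LPS library lay below every other library except those with LPS and DSF. Hfe fell 41.1-fold with LPS against unstimulated cells (log2 -5.36, SE 0.48, edgeR adjusted p = 2.35e-05), while IL4CD40 cells overlapped unstimulated cells (log2 0.14, SE 0.26, adjusted p = 0.657). Compared directly, LPS cells were 43.4-fold lower than IL4CD40 cells (log2 -5.44, SE 0.39, edgeR adjusted p = 4.69e-07). In that comparison 2 of the 8 genes tested were higher and 3 lower with LPS, beside 22.3% and 17.3% of all genes. With total counts the median gene of that comparison moved by -0.13, and higher genes went from 56.3 to 34% of all calls.

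With DSF under LPS, Hfe stayed near 0 in experiment 1. LPS with DSF held 8, 5, 9 and 2 counts, which overlapped LPS alone, and Hfe did not pass the filter on low counts there. With every gene that had a count in the fit, its log2 value was 1.09 (SE 0.67, edgeR adjusted p = 0.21). Under IL4CD40, DSF libraries held 120, 107, 65 and 67 counts. Hfe was called lower there (log2 -0.78, SE 0.26, edgeR adjusted p = 0.0227), but the groups overlapped, and the call was lost without any 1 of 4 libraries (IL4CD40 replicate 1 or 2, or DSF replicate 3 or 4, adjusted p = 0.0572 to 0.0708), with all 20 libraries in one fit (adjusted p = 0.0517) and with IL4CD40 replicates 3 and 4 only (-0.43, adjusted p = 0.216).

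In experiment 1, Fth1 had the largest rise with DSF among these genes under both stimuli, and Ftl1 rose with it. Fth1 encodes the heavy chain, which oxidises ferrous iron for storage (ENSMUSG00000024661, chr19:9982703-9985092, plus strand). Unstimulated libraries held 918.8, 928.8, 654.8 and 642.0 CPM and LPS libraries 722.0, 790.1, 839.4 and 770.7 CPM. With LPS and DSF they held 6231, 6854, 6907 and 7480 CPM, so that the lowest DSF library lay far above the highest without it. Fth1 rose 8.90-fold (log2 3.15, SE 0.054, edgeR adjusted p = 2.43e-24).

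Under IL4CD40 the Fth1 libraries fell into pairs. Without DSF, replicates 1 and 2 held 323.6 and 347.3 CPM and replicates 3 and 4 held 822.4 and 1238 CPM. With DSF the 4 libraries held 4637, 4753, 5910 and 5628 CPM, again above all without it, and Fth1 rose 7.38-fold (log2 2.88, SE 0.38, edgeR adjusted p = 4.93e-05). Against replicates 1 and 2 alone the log2 rise was 3.89, and against replicates 3 and 4 alone it was 2.31. The same split ran through Hmox1, the inducible haem oxygenase, which held 213 and 382 counts in replicates 1 and 2 and 2859 and 4806 in replicates 3 and 4. Its part in the Fth1 values was not tested. No difference between the 2 DSF effects on Fth1 was called with all libraries (interaction 0.26, SE 0.38, edgeR adjusted p = 0.703), but with IL4CD40 replicates 1 and 2 only it was -0.74 (adjusted p = 2.08e-05) and with replicates 3 and 4 only 0.85 (adjusted p = 0.000169).

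Ftl1 encodes the light chain, which helps iron to form its mineral core in the shell (ENSMUSG00000050708, chr7:45457944-45459884, minus strand). LPS libraries held 237.6, 235.2, 272.8 and 260.4 CPM, and LPS with DSF 1479, 1531, 1653 and 1715 CPM. Ftl1 rose 6.42-fold (log2 2.68, SE 0.053, edgeR adjusted p = 3.19e-23). Under IL4CD40 the libraries held 265.8, 286.2, 507.9 and 626.5 CPM without DSF and 1618, 1600, 1871 and 1773 CPM with it, a 3.91-fold rise (log2 1.97, SE 0.23, edgeR adjusted p = 2.53e-05). The ranges with and without DSF did not overlap under either stimulus. The interaction term for Ftl1 was 0.71 (SE 0.25, edgeR adjusted p = 0.0613). It passed the threshold without IL4CD40 replicate 1 (0.87, adjusted p = 0.00567) or replicate 2 (0.85, adjusted p = 0.0137), and with replicates 3 and 4 only it was 1.12 (adjusted p = 5.5e-08). Over all 25 alternatives the term ran from 0.12 to 1.12, with adjusted p-values up to 0.45 (edgeR or DESeq2). It passed the threshold in 5 of them and not in the other 20.

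Without DSF, neither ferritin gene was called against unstimulated cells under either stimulus. The LPS values were -0.01 for Fth1 (SE 0.14, edgeR adjusted p = 0.966) and -0.18 for Ftl1 (SE 0.18, adjusted p = 0.399). Here the direction turned with the unstimulated libraries used: against replicates 1 and 2 only, Fth1 was at -0.24 and Ftl1 at -0.50 (adjusted p = 0.000116 and 6.11e-09), and against replicates 3 and 4 only, at 0.30 and 0.25 (adjusted p = 5.45e-05 and 0.000739). With IL4CD40 the values were -0.16 for Fth1 (SE 0.40, adjusted p = 0.74) and 0.61 for Ftl1 (SE 0.30, adjusted p = 0.103), the latter called without IL4CD40 replicate 1 (0.77, adjusted p = 0.0489) and with all 20 libraries in one fit (0.56, adjusted p = 0.0276). Between the stimuli, Fth1 was at 0.20 (edgeR adjusted p = 0.676), at 0.65 without IL4CD40 replicate 4 (adjusted p = 0.0471), at 1.22 with IL4CD40 replicates 1 and 2 only (adjusted p = 5.07e-16) and at -0.40 with replicates 3 and 4 only (adjusted p = 0.00573). Ftl1 was lower with LPS by 0.74 on the log2 scale (SE 0.23, edgeR adjusted p = 0.0228), in groups that overlapped. The call was lost without LPS replicate 1, 2 or 4 or IL4CD40 replicate 3 (adjusted p = 0.0515 to 0.0641), and the value was -0.14 with IL4CD40 replicates 1 and 2 only.

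The heavy chain gained on the light chain with DSF. The ratio of Fth1 to Ftl1 FPKM was 3.96 to 4.77 in unstimulated libraries, 4.58 to 5.2 with LPS and 6.47 to 6.93 with LPS and DSF. With IL4CD40 it was 1.88 to 3.06, and with DSF added 4.44 to 4.91. The ranges with and without DSF did not overlap under either stimulus. These values are from experiment 1. In the single libraries of experiment 2 the ratio was 3.88 with LPS, 5.9 with DSF added and 5.59 with ibrutinib added. Under IL4CD40 it was 2.1 without an inhibitor, 4.96 with DSF and 2.54 with ibrutinib. A higher ratio under LPS was thus not particular to DSF there.

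Reads of ferritin genes can also match near-identical copies, so that part of these counts is uncertain. Ftl1-ps1 held 118 to 146 counts with LPS and 682 to 978 with LPS and DSF, and the Fth1 copy Fth-ps2 held at most 14 counts in any library.

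Ncoa4 encodes the receptor that delivers ferritin to lysosomes, where its iron is released (ENSMUSG00000056234, chr14:32159865-32179855, plus strand). It moved opposite to ferritin with DSF and rose with both stimuli. Unstimulated libraries held 52.2, 53.5, 53.2 and 46.7 CPM, LPS libraries 72.6, 67.6, 65.2 and 70.0, and IL4CD40 libraries 76.5, 83.1, 78.7 and 71.8. Every stimulated library lay above every unstimulated one, with log2 changes of 0.42 (SE 0.061, edgeR adjusted p = 0.00036) and 0.65 (SE 0.078, adjusted p = 0.000116). With DSF, LPS libraries held 44.6, 50.4, 43.2 and 47.8 CPM (log2 -0.55, SE 0.054, edgeR adjusted p = 1.62e-09). IL4CD40 libraries with DSF held 58.1, 54.2, 47.6 and 47.7 CPM (log2 -0.64, SE 0.078, adjusted p = 3.04e-05). All 8 DSF libraries lay below their stimulated controls and near the unstimulated range, and neither DSF group was called against unstimulated cells (log2 -0.15 and 0.02, edgeR adjusted p = 0.0823 and 0.866). Scaled by total counts, both were called lower than unstimulated cells (-0.56 and -0.29, edgeR adjusted p = 0.000129 and 0.0243). LPS with DSF was also called lower without unstimulated replicate 4 (-0.22, adjusted p = 0.022). Ncoa4 was called 0.17 log2 units lower with LPS than with IL4CD40 (SE 0.058, edgeR adjusted p = 0.0395), a call that was lost without any 1 of 6 libraries (LPS replicates 2 to 4 and IL4CD40 replicates 1 to 3, adjusted p = 0.0642 to 0.119).

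Slc40a1 encodes ferroportin, the exporter of ferrous iron (ENSMUSG00000025993, chr1:45908068-45926523, minus strand). Its counts were low in every group. Unstimulated libraries held 238, 281, 93 and 89 counts, LPS libraries 7, 1, 3 and 2, and IL4CD40 libraries 1, 4, 6 and 6. On the log2 scale Slc40a1 fell by 5.37 under LPS (SE 0.58, edgeR adjusted p = 6.4e-05) and fell by 5.01 with IL4CD40 (SE 0.54, adjusted p = 6.13e-05). Unstimulated replicates 1 and 2 held 2.53 times the level of replicates 3 and 4. Against either pair alone, the log2 values ran from -5.89 to -4.52 with LPS, where the value without LPS replicate 1 was -6.01, and from -5.56 to -4.17 with IL4CD40.

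Slc40a1 was higher again in experiment 1 libraries with DSF. LPS with DSF held 20, 24, 9 and 16 counts, all above LPS alone. Slc40a1 did not pass the filter on low counts in that comparison, and with every gene that had a count in the fit its log2 value was 2.57 (SE 0.50, edgeR adjusted p = 9.71e-07). IL4CD40 with DSF held 32, 16, 37 and 29 counts, and there Slc40a1 rose 6.41-fold (log2 2.68, SE 0.42, edgeR adjusted p = 0.000181). Against IL4CD40 replicates 1 and 2 only the log2 rise was 3.45, and against replicates 3 and 4 only 2.18. Both DSF groups stayed below unstimulated cells, by -2.76 and -2.32 on the log2 scale (edgeR adjusted p = 0.00038 and 0.000877).

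Markers of red pulp macrophages moved with some of these Slc40a1 values. The 14 markers other than Hmox1 summed to 189.3, 185.1, 111.3 and 102.8 CPM in unstimulated replicates 1 to 4. Slc40a1 held 8.94, 10.9, 3.80 and 4.01 CPM in the same libraries. The marker sums were 63.8 to 74.5 CPM with LPS, 83.6 to 91.5 with LPS and DSF, 77.1 to 86.7 with IL4CD40, and 85.1 to 110.6 with IL4CD40 and DSF. The list was added without Hmox1 after the data were seen, since Hmox1 is also a haem gene and took most of the sum with DSF. Cd5l, a macrophage gene, held 30 to 404 counts in unstimulated libraries and 2 to 9 with IL4CD40. Vcam1 held 43 to 275 and 6 to 14 counts in the same groups. Mrc1 went the other way, with 2.12 to 2.70 CPM in unstimulated libraries and 3.15 to 6.48 with IL4CD40. Axl, Spic and Adgre1 overlapped between these groups. Cd163, the haemoglobin scavenger receptor, held 17 to 51 counts in unstimulated libraries, at most 1 with LPS and at most 2 with LPS and DSF. C1qa held 16 to 58 counts in unstimulated libraries and at most 1 with LPS and DSF, while Spic, a transcription factor of these cells, held 176 to 269 counts with LPS and 319 to 375 with LPS and DSF. Between IL4CD40 without and with DSF, where Slc40a1 rose, Vcam1 held 6 to 14 and 4 to 15 counts and Cd163 1 to 6 and 1 to 4 counts, while Spic went from 37 to 123 up to 260 to 368 counts. Of the 15 markers with Hmox1, 9 of 13 tested were lower and 3 higher with LPS than in unstimulated cells, and 9 of 13 lower and 1 higher with IL4CD40. Of all genes tested, 33.3% fell and 29.6% rose in the LPS comparison, against 32.1% and 30.4% in the IL4CD40 one. With DSF, 3 of 8 tested were higher and 3 lower under LPS, and 2 of 7 higher and 1 lower under IL4CD40. The DSF shares of all genes called up and down were 35.1% and 36.0% under LPS, near those of the markers. Under IL4CD40 the shares of all genes were 30.1% and 31.6%. The part of red pulp macrophages in the Slc40a1 counts was not tested.

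**Figure D3:**
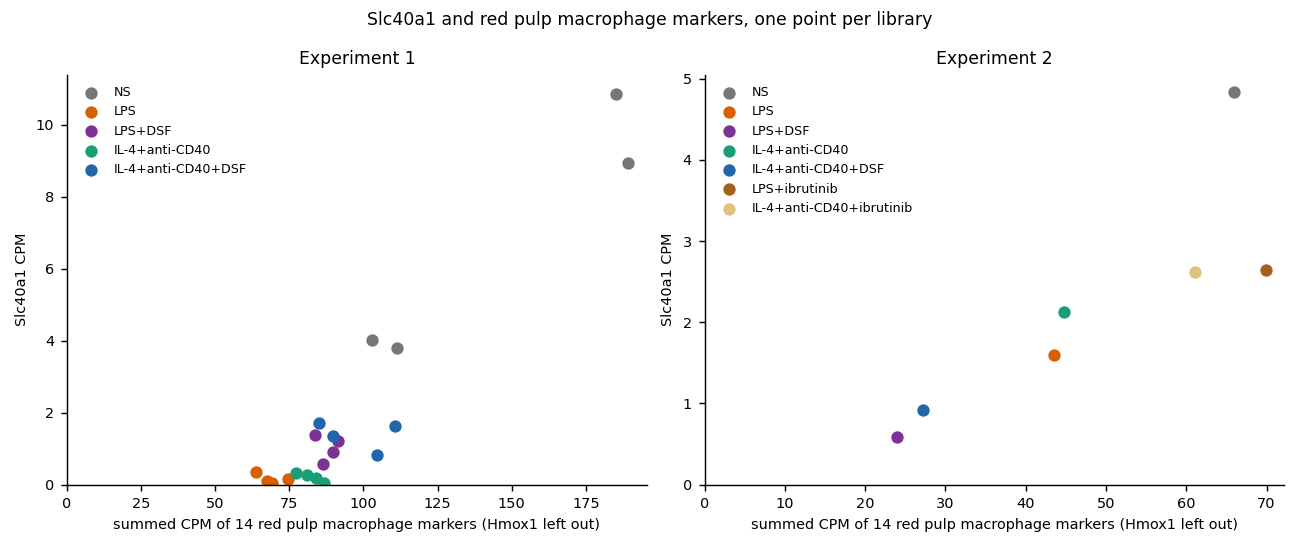
Slc40a1 CPM (y axis) against the summed CPM of 14 red pulp macrophage markers (x axis), 1 point per library, experiment 1 at left and experiment 2 at right, both axes linear from 0. Unstimulated libraries lay highest on the Slc40a1 axis in both, and the DSF libraries of experiment 1 lay above their stimulated controls while those of experiment 2 lay below.

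Aco1 encodes iron regulatory protein 1, which doubles as the cytosolic aconitase when it holds an iron-sulphur cluster (ENSMUSG00000028405, chr4:40143081-40198338, plus strand). Unstimulated libraries held 33.5, 34.5, 29.9 and 30.8 CPM and LPS libraries 27.8, 27.9, 27.8 and 28.4. LPS with DSF held 16.1, 15.5, 16 and 16.5 CPM. IL4CD40 libraries held 32.8, 30.5, 26.2 and 26.8 CPM without DSF and 16.1, 17, 17.2 and 15.1 with it. All 8 DSF libraries lay below all 12 others. Aco1 fell 1.72-fold under LPS (log2 -0.79, SE 0.069, edgeR adjusted p = 2e-10) and 1.85-fold under IL4CD40 (log2 -0.89, SE 0.095, adjusted p = 1.17e-05). It was also lower than in unstimulated cells with either stimulus and DSF, by -1.01 and -0.97 on the log2 scale (edgeR adjusted p = 4.03e-06 and 1.18e-05). The stimuli alone moved it little: -0.20 with LPS (SE 0.065, edgeR adjusted p = 0.0234), a call lost without any 1 of 6 libraries (unstimulated replicates 1 and 2 and LPS replicates 1 to 4, adjusted p = 0.0507 to 0.0938), and -0.09 with IL4CD40 (SE 0.10, adjusted p = 0.462).

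Ireb2 encodes iron regulatory protein 2, which is degraded when iron is plentiful (ENSMUSG00000032293, chr9:54863789-54912530, plus strand). Its mRNA varied least among these genes. Unstimulated libraries held 131.2, 130.1, 113.5 and 110.8 CPM, LPS libraries 141.7 to 146.7 and IL4CD40 libraries 137.8 to 143.1. The changes were 0.26 with LPS (SE 0.068, edgeR adjusted p = 0.0101) and 0.26 with IL4CD40 (SE 0.076, adjusted p = 0.0148), and neither was called when libraries were scaled by total counts (0.03 and 0.11). The second was also lost without unstimulated replicate 3 (adjusted p = 0.0682). With DSF, libraries held 128.9 to 132.3 CPM under LPS (log2 -0.13, SE 0.039, edgeR adjusted p = 0.00435) and 124.7 to 130.4 under IL4CD40 (log2 -0.18, SE 0.044, adjusted p = 0.00359), all below their controls. The second call was lost with all 20 libraries in one fit (adjusted p = 0.0631).

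Over the 9 genes, DSF under LPS gave 3 higher and 3 lower of 7 tested, beside 35.1% and 36.0% of all 14154 genes. Under IL4CD40 it gave 3 higher and 5 lower of 9, beside 30.1% and 31.6% of all 14275 genes. The medians were -0.06 and -0.18, beside 0.00 and -0.02 over all genes tested. Against unstimulated cells, 3 of the 9 were higher and 3 lower with LPS and DSF, beside 34.3% and 37.3% of all genes, and 3 higher and 3 lower with IL4CD40 and DSF, beside 33.4% and 35.3%. With total counts, higher genes went from 49.4 to 34.2% of all calls for DSF under LPS (median shift -0.21), from 48.8 to 35.9% under IL4CD40 (-0.15), and against unstimulated cells from 47.9 to 29.7% (-0.41) and from 48.6 to 31.6% (-0.31). In both comparisons with unstimulated cells, Fth1, Ftl1 and Tfrc were the genes called higher. Fth1 lay 3.12 and 2.74 and Ftl1 2.47 and 2.59 log2 units above unstimulated cells, with edgeR adjusted p-values from 4.34e-07 to 6.16e-06. Slc40a1 and Aco1 were among the genes called lower in both, with Hfe as the third with LPS and DSF (log2 -4.24, edgeR adjusted p = 1.32e-05) and Slc11a2 as the third with IL4CD40 and DSF (-0.52, adjusted p = 0.00693).

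Experiment 2 had 1 library per condition, so its differences have no replicate check and are given as log2 ratios without a test, a gene being counted at 2-fold or more. With DSF under LPS, 4 of the 9 genes were past 2-fold higher and 3 lower, beside 20.3% and 19.5% of 14275 genes. Under IL4CD40, 2 were higher and 3 lower, beside 21.9% and 20.3%. Fth1 counts were 18794 with LPS and 110029 with DSF added, and 10652 with IL4CD40 and 66393 with DSF added, giving log2 ratios of 2.65 and 3.02. Monocyte markers in the same libraries summed to 719 and 2041 CPM without and with DSF under LPS and to 191.1 and 1156 under IL4CD40, and erythroid markers to 30.4 and 75.9 and to 27.8 and 65.4, and their part in these ratios was not tested. Ftl1 gave 2.05 and 1.78, Aco1 -1.02 and -1.28, and Ncoa4 -1.17 and -0.90. These are on the same side of 0 as in experiment 1. Ireb2 gave -0.94 and -0.76 and Tfrc -0.58 and -0.56. Slc11a2 gave 1.15 and 0.41, from 186 and 385 counts with LPS and 212 and 217 with IL4CD40.

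With DSF, Slc40a1 went the other way in experiment 2. There Slc40a1 held 104 counts in unstimulated cells, 29 with LPS and 39 with IL4CD40, and only 10 and 13 with DSF added. Its DSF log2 ratios were thus -1.29 and -1.12, on the other side of 0 from experiment 1. The 14 red pulp markers summed to 65.9 CPM in unstimulated cells, 43.5 and 44.8 with the stimuli, and 24 and 27.2 with DSF added. Hfe held 14 counts in unstimulated cells, 2 with LPS and 25 with LPS and DSF, a ratio of 13.4 for DSF with a 95% counting interval of 3.35 to 117. With IL4CD40 it held 58 counts and with DSF added 20 (log2 -1.10).

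The stimuli gave 1 of the 9 genes higher and 2 lower with LPS in experiment 2, beside 8.62% and 9.88% of all genes. They gave 2 higher and 1 lower with IL4CD40, beside 10.7% and 13.7%. Tfrc lay 1.60 and 1.14 log2 units above unstimulated cells, and Slc40a1 lay at -1.54 and -1.15. Hfe was 2 counts against 14 with LPS, a ratio of 0.169 with a 95% counting interval of 0.0186 to 0.735, and 58 against 14 with IL4CD40, which gave 2.12.

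Ibrutinib left the ferritin mRNAs near their controls. None of the 9 genes passed 2-fold with ibrutinib under either stimulus, where 2.81% and 2.47% of all genes were past 2-fold higher and lower under LPS and 2.23% and 1.69% under IL4CD40. Fth1 held 25642 counts with LPS and ibrutinib and 14457 with IL4CD40 and ibrutinib, with log2 ratios of 0.06 and -0.06 to the controls. Ftl1 gave -0.47 and -0.33. Tfrc gave -0.53 and -0.57, close to the -0.58 and -0.56 of DSF in the same experiment. Slc40a1 held 63 and 68 counts with ibrutinib (log2 0.70 and 0.29), with red pulp marker sums of 69.9 and 61.1 CPM. The 2 inhibitors were compared with the same control libraries.

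**Figure D4:**
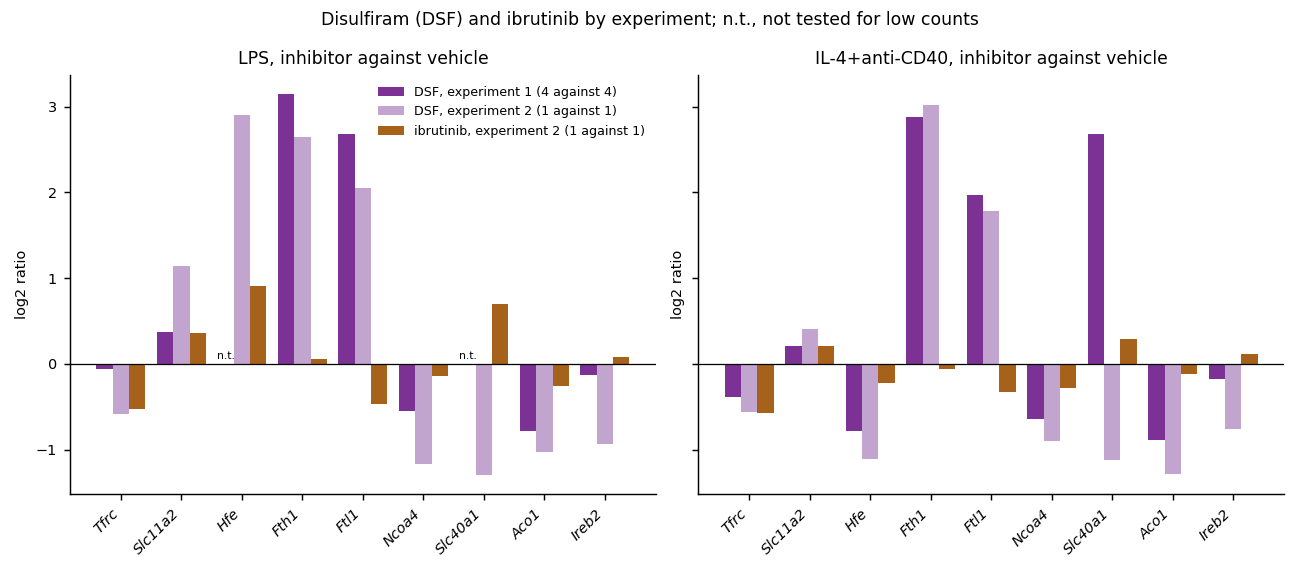
Log2 ratio (y axis) of each gene, inhibitor against vehicle, under LPS at left and IL4CD40 at right, for DSF in experiment 1 (4 against 4 libraries) and for DSF and ibrutinib in experiment 2 (1 against 1). Fth1 and Ftl1 lay at 1.78 to 3.15 with DSF and at -0.47 to 0.06 with ibrutinib, and Slc40a1 had opposite signs with DSF in the 2 experiments where it was tested in both.

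The other iron genes form 8 lists of 103 genes in all, chosen by function. With DSF, 24 of 82 tested were higher and 43 lower under LPS, beside 35.1% and 36.0% of all genes tested, and 19 of 84 higher and 38 lower under IL4CD40, beside 30.1% and 31.6%. Of the 81 tested under both, 17 were higher under both, 34 were lower under both, and none was called in opposite directions. The lists differed in balance, and their medians are set beside the median of all genes tested, 0.00 under LPS and -0.02 under IL4CD40.

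**Figure D5:**
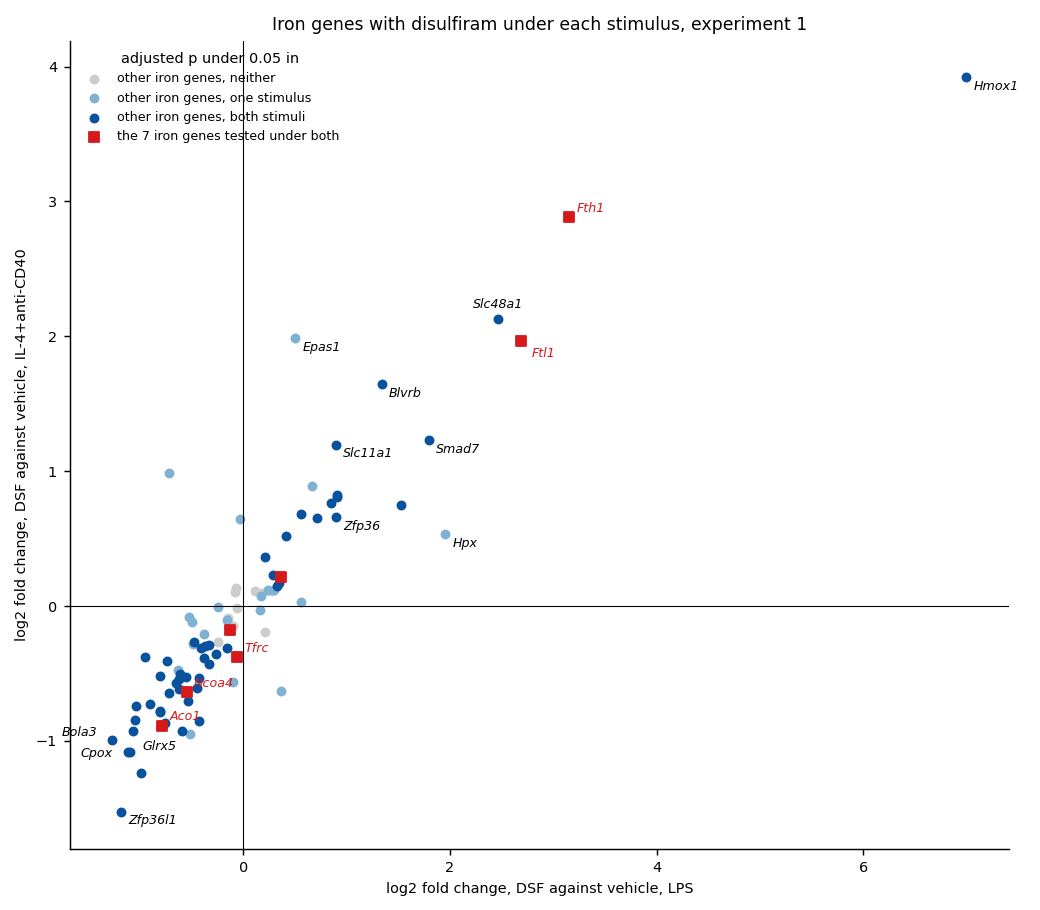
Log2 fold change with DSF under LPS (x axis) and under IL4CD40 (y axis) in experiment 1 for the other iron genes (circles, coloured by whether called in neither, one or both) and for the 7 genes of the report tested under both (squares). Hmox1 lay at 6.99 and 3.92, Fth1 and Ftl1 lay near the haem transporter Slc48a1 at upper right, and Aco1 and Ncoa4 lay among the many genes at lower left.

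Haem breakdown and transport held the genes that rose most. Hmox1, which frees iron from haem, went from 13.4 to 1688 CPM on average under LPS (127-fold, edgeR adjusted p = 1.29e-29) and rose 15.1-fold under IL4CD40 (log2 3.92, adjusted p = 0.0013), by 6.79 against replicates 1 and 2 only and by 3.03 against replicates 3 and 4 only. Slc48a1, which moves haem out of lysosomes, rose by 2.46 and 2.13 on the log2 scale (SE 0.067 and 0.15), and Blvrb, a biliverdin reductase, by 1.34 and 1.65. Hmox2, the constitutive haem oxygenase, fell by 0.74 under LPS and by 0.40 under IL4CD40. Of 10 genes of this list tested under LPS, 5 were higher and 2 lower (median 0.26), and of 11 under IL4CD40, 3 higher and 4 lower (median 0.11).

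Genes that build iron-sulphur clusters or import mitochondrial iron were mostly lower with DSF. Of 31 tested, 21 were lower and 4 higher under LPS (median -0.41), and 20 lower and 3 higher under IL4CD40 (median -0.31). Bola3, Glrx5 and Nfu1, which act late in mitochondrial cluster assembly, fell by 1.27, 1.10 and 1.05 under LPS. Under IL4CD40 they fell by 0.99, 1.08 and 0.84. Iscu, the assembly scaffold, fell by 0.76 and 0.87. Cisd2, which itself holds a cluster, rose by 0.71 and 0.66. Haem synthesis had 7 lower and 1 higher of 10 under LPS (median -0.54) and 7 lower and 2 higher under IL4CD40 (median -0.48). Cpox and Alad, 2 enzymes of the pathway, fell by 1.12 and 1.07 under LPS and by 1.08 and 0.93 under IL4CD40, and Slc25a38, a mitochondrial glycine carrier, rose by 0.85 and 0.77.

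The transferrin cycle had 6 higher and 1 lower of 8 under LPS (median 0.42) and 5 higher and 0 lower of 9 under IL4CD40 (median 0.55; DESeq2 also called none of them lower). Picalm, a clathrin adaptor, rose by 0.91 and 0.81 and Mcoln1, a lysosomal cation channel, by 0.90 and 0.82. Snx3, which sorts the transferrin receptor back to the surface, rose by 0.56 and 0.69. Transport without transferrin had 2 higher and 3 lower of 5 under LPS (median -0.59), and 1 higher and 1 lower of 5 under IL4CD40 (median 0.03). Slc11a1, a phagosomal relative of DMT1, rose by 0.89 and 1.2, and Slc39a14, a zinc and iron importer, fell by 0.59 and 0.92.

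Ferritin partners and cytosolic iron chaperones had 2 higher and 4 lower of 7 under LPS (median -0.43), and 0 higher and 3 lower under IL4CD40 (median -0.28). Herc2, a ubiquitin ligase that acts on NCOA4, fell by 0.54 and 0.71, and Poldip2 fell by 0.81 and 0.78. Pcbp1 and Pcbp2, chaperones that load iron into ferritin, were called higher under LPS by 0.17 and 0.16 but lay at -0.039 and -0.049 with total counts. Iron sensing and hepcidin signalling had 3 higher and 4 lower of 8 under LPS (median 0.08), and 4 higher and 2 lower under IL4CD40 (median 0.07). Zfp36, an mRNA decay factor that acts on Tfrc mRNA, rose by 0.90 and 0.66, and its relative Zfp36l1 fell by 1.18 and 1.53. The other mRNAs known to carry an IRE had 1 higher and 1 lower of 4 under LPS (median 0.21), and 2 higher and 1 lower under IL4CD40 (median 0.43). Among them Cdc42bpa, a kinase of the cytoskeleton, rose by 1.52 and 0.75, the second call being lost with IL4CD40 replicates 3 and 4 only (0.53, adjusted p = 0.0632).

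In the single libraries of experiment 2, the list medians with DSF were -0.84 and -0.79 for cluster assembly and mitochondrial iron, -0.70 and -0.87 for haem synthesis, 0.51 and 0.54 for the transferrin cycle, 0.37 and 0.69 for haem breakdown and transport, and -0.46 and -0.58 for ferritin partners, under LPS and IL4CD40. The median over all genes was -0.04 and -0.01. Transport without transferrin lay at 0.65 and -0.08, on the other side of 0 from experiment 1. Sensing lay at -0.25 and 0.03 and the other mRNAs with an IRE at -0.20 and 0.23, both on the other side of 0 from experiment 1 under LPS.

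With the stimuli alone, the calls among the other iron genes were near the share over all genes. With LPS, 23 of 86 tested were higher and 26 lower, beside 29.6% and 33.3% of all genes, and with IL4CD40, 29 of 87 higher and 27 lower, beside 30.4% and 32.1%. Slc39a14 rose by 1.47 and 1.46 on the log2 scale and Zfp36l1 by 0.53 and 0.87. Hspa9 and Iscu of the cluster machinery rose by 1.23 and 1.11 with LPS and by 1.57 and 1.45 with IL4CD40. Steap3, the endosomal ferric reductase, fell by 1.73 and 2.07, and Slc25a37, the mitochondrial iron importer mitoferrin 1, fell by 1.46 and 1.39. Haem synthesis had 0 higher and 6 lower of 10 with LPS and 0 higher and 4 lower with IL4CD40, with Fech and Urod called lower in both. The mitochondrial list had 13 of 31 higher with LPS, but 5 with total counts, which moved the median gene of that comparison by -0.23. With IL4CD40 it had 16 of 31 higher and 5 lower (median 0.33, beside -0.04 over all genes tested). In that comparison total counts moved the median gene by -0.15.

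For each gene, the genes of most similar pattern were sought over the 20 libraries of experiment 1 (Pearson r of log2 CPM, 14425 genes averaging 10 counts or more). These values are a description, since the libraries share groups. Fth1 was closest to Rtn4, Ubap1 and Atp6v1a (r = 0.988, 0.988 and 0.987). Ftl1 was closest to its copy Ftl1-ps1 (0.996), then Dnase1l3 and Zbtb2 (0.995 and 0.994). Tfrc was closest to Cdk6, Tmed5 and Rcc2 (0.989, 0.987 and 0.982) and Aco1 to Topbp1, Pctp and Dhx16 (0.981, 0.98 and 0.979). Ncoa4 was closest to Nvl, Xrcc5 and Mllt1 (0.971, 0.97 and 0.969). For Hfe they were Cd300ld, Wdfy2 and Hnrnpl (0.968, 0.958 and 0.951), for Slc40a1 Leprotl1, Psen2 and Nipal3 (0.965, 0.958 and 0.958), for Ireb2 Zc3h13, Slc39a14 and Jarid2 (0.962, 0.959 and 0.959), and for Slc11a2 Pde7a, Gramd1a and Rab43 (0.923, 0.919 and 0.915).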

How the data were processed

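RNA-seq was made from 27 B cell libraries. The authors aligned reads to mm10 with HISAT2 2.0.5 and counted them per gene with featureCounts 1.5.0-p3 (submitters' processing notes), and deposited raw counts and FPKM (counts scaled to gene length and library size) for each experiment. The strand setting of the counting is not given in the sources used here. Counts were tested with edgeR 4.0.16 (R 4.3.3, TMM, filterByExpr, quasi-likelihood, 8 libraries per pair of groups, 16 for the interaction, no covariates, Benjamini-Hochberg over all genes, threshold 0.05). Experiment 2 was given as log2 ratios of TMM-normalized counts (prior count 2, mean of at least 10 counts). FPKM were used for levels between genes only. Depth limits the precision of Slc40a1 and Hfe. The counting interval covers counting error only. The test was checked on simulated data. Replicate numbers showed no general pairing: over 40 pairs of same-numbered libraries, the correlation of deviations from group means ran from -0.06 to 0.22. Between IL4CD40 without and with DSF it was 0.217, -0.036, -0.030 and 0.200 for replicates 1 to 4. Replicate 1 without DSF against replicate 4 with it gave -0.205, and replicate 4 without against replicate 1 with it gave -0.238. The labels name no batch, and a split shared by these groups was not tested. Named are all 9 genes, and of each other list at most 3 genes per direction, those of largest change among the called. The genes and lists were chosen with earlier results of these data known. Alternatives were DESeq2 1.42.0, other scalings and filters, a fit of all 20 libraries, a replicate block, leaving out each library and, added after seeing the data, each pair of the libraries that stood apart. The values of 1 gene of the other lists are not reported here.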

Additional observations from a re-analysis of the deposited data

Results flagged for a closer look

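The DSF effect on Tfrc differed between the stimuli by 0.31 on the log2 scale (edgeR interaction term, adjusted p = 0.00325): Tfrc was at -0.06 with DSF under LPS and at -0.38 under IL4CD40. Fitted over all 20 libraries, the difference was 0.24 with an adjusted p of 0.641. In experiment 2, with 1 library per condition, the ratios were -0.58 and -0.56.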

How the results depend on the processing

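With DSF, the rises of Fth1 and Ftl1 and the falls of Aco1 and Ncoa4 kept their direction and call under all 15 alternatives run under LPS and all 17 under IL4CD40, with log2 values for Fth1 from 2.95 to 3.19 and from 2.31 to 3.89. Over all values of the 9 genes, 1160 alternatives kept the outcome of the test, 31 gained a call and 42 lost one. In 7 the direction turned where at least 1 of the 2 fits was called. The 1160 include values that changed sign where neither fit was called. An example is Aco1 for IL4CD40 against unstimulated cells, at -0.09 in the main fit and up to 0.07 in the alternatives. The turned values were Fth1 0.30 and Ftl1 0.25 for LPS against unstimulated replicates 3 and 4 only, Fth1 -0.40 for LPS against IL4CD40 replicates 3 and 4 only, Fth1 -0.74 for the interaction with IL4CD40 replicates 1 and 2 only, and with total counts Ireb2 -0.31 and -0.22 and Ncoa4 -0.29 against unstimulated cells with DSF. Pcbp1 and Pcbp2 lay at -0.039 and -0.049 with DSF under LPS by total counts. Among the counts of the 9 genes, 5 were higher with LPS against unstimulated replicates 3 and 4 only. A minimum of 10 counts in every library, which drops Slc40a1 and, with LPS, Hfe, left 2 lower with LPS, 1 lower with IL4CD40 and 1 lower with LPS and DSF against unstimulated cells. All 20 libraries in one fit gave 1 higher with LPS than with IL4CD40, 2 lower with DSF under IL4CD40 and 0 interactions. Total counts gave 6 lower in both DSF groups against unstimulated cells. Interactions numbered 2 with DESeq2, 3 with all genes that had a count, 2 with IL4CD40 replicates 1 and 2 only (and 1 lower) and 3 with replicates 3 and 4 only. In experiment 2, a mean of at least 50 counts left 0 lower with LPS, 1 higher and 0 lower with IL4CD40, and 1 lower with DSF under each stimulus. Total counts there gave 1 higher and 2 lower with IL4CD40 and 5 lower with DSF under IL4CD40, and a prior count of 0.5 gave 1 higher with ibrutinib under LPS. Leaving out 1 library at a time gave 2 to 3 higher and 1 to 3 lower for LPS against IL4CD40, and 1 to 2 interactions. The cause was not tested where the construction of an alternative does not show it.

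The replicate block gave 2 interactions, adding Ftl1 (0.65, adjusted p = 0.0354), and lost the calls of Aco1 for LPS against unstimulated cells (adjusted p = 0.065), of Ncoa4 for LPS against IL4CD40 (adjusted p = 0.074) and of Hmox1 in the same comparison (-2.004, adjusted p = 0.0526). The numbers showed no general pairing, with 3 of 40 correlations of same-numbered libraries over 0.1. Replicates 1 and 4 of IL4CD40 without and with DSF were among these 3, at 0.217 and 0.200. Depth limits Slc40a1 and Hfe, which held at most 7 counts in LPS libraries of experiment 1.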

Other observations

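Between the 2 stimuli without DSF, 13 of 83 other iron genes tested were higher with LPS and 23 lower (edgeR adjusted p under 0.05), beside 22.3% and 17.3% of all genes. With total counts, higher genes went from 56.3 to 34% of all calls in this comparison. Lcn2, the siderophore-binding lipocalin 2, was 12.2-fold higher with LPS (4.99 against 0.42 CPM, adjusted p = 5.82e-06). Steap4, a metalloreductase, was 8.63-fold higher (adjusted p = 1.74e-05). Hmox2 was 3.36-fold higher (adjusted p = 2.64e-10), while Hmox1 was 7.53-fold lower (adjusted p = 0.0141) against IL4CD40 libraries that ranged from 9.77 to 252.2 CPM; with IL4CD40 replicates 1 and 2 only it lay at -0.03 on the log2 scale (adjusted p = 0.875), and with the replicate block at -2.004 (adjusted p = 0.0526). Slc25a28, the mitochondrial iron importer mitoferrin 2, was 1.64-fold higher with LPS (adjusted p = 6.05e-06).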
